A study of Mus musculus with 6 samples.

Results

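The RNA levels of 10 genes for secreted angiogenic factors, Notch ligands and receptors for vascular endothelial growth factors were followed in mouse macrophages with and without Drp1. The genes were taken by name, with earlier results of these data known. They were the VEGF family ligands Vegfa, Vegfb, Vegfc and Pgf, the secreted factors Angptl4 and Fgf1, the Notch ligands Jag1 and Jag2, and the receptors Flt1 and Nrp1. All 10 had at least 10 reads in total and were among the 18506 genes tested. In Drp1 KO macrophages Angptl4 fell to 0.533 of its WT level and was the only one of the 10 to pass an adjusted p threshold of 0.05. Of all genes tested 3.36% passed, with 1.06% lower in Drp1 KO. Jag1 and Nrp1 did not pass, but were lower in every Drp1 KO library than in any WT library. The same held for 10.3% of all genes tested. Of 14 other settings, Jag1 passed in 4 and Nrp1 in 2. Fgf1 was lower too, but reached the minimum count only through WT and is not read with them. Vegfa, the most abundant of the 10, overlapped between the genotypes, with a log2 fold change (Drp1 KO minus WT) of -0.09 (SE 0.224).

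The cells were bone marrow-derived macrophages (BMDMs) on day 7 of culture with L929-cell supernatant. They were then kept for 8 hours without serum at 2.1% oxygen, a culture model of ischemia called hypoxia with serum starvation (HSS). WT cells came from LysM-Cre+/- Drp1+/+ mice and Drp1 KO cells from mice carrying the same Cre with floxed Drp1 alleles, so both groups express Cre from a promoter active in myeloid cells. Each group had 3 libraries, which the sample titles number as biological replicates. For culture, marrow from 2 mice of each genotype was pooled, and whether each library came from its own pool was not given in the sources used here, so the p-values measure the spread between these libraries. There were no libraries without HSS, so every value describes cells under HSS.

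VEGF family ligands bind tyrosine kinase receptors on endothelial cells and drive vessel growth, with Vegfa the main ligand and a classical target of hypoxia-inducible factors. Flt1 (VEGFR1) binds Vegfa, Vegfb and Pgf, and its soluble form, which lacks the kinase, captures ligand. Nrp1 is a coreceptor that binds Vegfa forms carrying the exon 7-encoded region, and also semaphorins. Jagged ligands on one cell activate Notch receptors on its neighbour, and macrophages are known as a source of both kinds of signal in ischemic tissue.

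The deposited values are per transcript, and several of these genes make proteins of different behaviour from alternative exons, so the stretches that tell the forms apart are shown first. They were read from the GRCm39 genome on the minus strand, 5′ to 3′. In Vegfa, exons 6 and 7 encode basic regions that hold the protein at heparan sulfate. Exon 6 lies at chr17:46333203-46333274 and exon 7 at chr17:46331917-46332048. The transcript Vegfa-207 carries both, Vegfa-202 lacks exon 6, Vegfa-203 lacks exon 7 and Vegfa-201 lacks both.
Vegfa exon 6: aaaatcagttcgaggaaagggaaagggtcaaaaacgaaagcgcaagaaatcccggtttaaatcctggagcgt
Vegfa exon 7: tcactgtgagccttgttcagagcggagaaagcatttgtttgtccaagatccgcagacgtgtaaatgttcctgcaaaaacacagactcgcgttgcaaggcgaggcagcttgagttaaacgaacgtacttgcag

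In Vegfb, 101 coding bases of exon 6 at chr19:6962864-6962964 are present in Vegfb-201, whose 207 codons encode the freely diffusing form, and absent from Vegfb-202, whose 188 codons encode the heparin-binding form. In Flt1, the soluble transcript Flt1-203 reads on into intron sequence, and its last coding bases at chr5:147575940-147576034 are absent from the full-length Flt1-202. The capitals mark its stop codon. In Angptl4, exon 3 of the coding transcript Angptl4-201 starts with 4 bases, in capitals, that Angptl4-202 lacks, at chr17:33999594-33999621. Without them the annotated reading frame stops at the end of the stretch, after 154 codons in place of 410, and Angptl4-202 is annotated as a target of nonsense-mediated decay.
Vegfb stretch of exon 6: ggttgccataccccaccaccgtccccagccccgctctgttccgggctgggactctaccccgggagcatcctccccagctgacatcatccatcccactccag
Flt1 soluble form, end of the coding sequence: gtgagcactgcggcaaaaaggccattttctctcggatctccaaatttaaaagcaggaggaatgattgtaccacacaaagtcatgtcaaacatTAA
Angptl4 start of exon 3: ATAGacctcttggcccccacgcacctag

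The libraries held between 23389488 and 32231206 estimated reads each, and their depths overlapped between the groups, so that 3 counts, taken as the floor, correspond to 0.0917 to 0.136 counts scaled per 1e6 reads (CPM). These floors cover counting error only. Dnm1l, the gene for Drp1, was at 72.7, 69.9 and 75.1 CPM in WT and at 58.7, 60.7 and 66.3 CPM in Drp1 KO libraries. It was lower in every Drp1 KO library, with a log2 fold change (Drp1 KO minus WT, here and below) of -0.23 (SE 0.0921, edgeR adjusted p = 0.248). The count sums all its transcripts, and the part of the gene that the floxed allele removes was not given in the sources used here. At the protein level, the study reported deletion of DRP1 in BMDMs by immunoblot, against BMDMs from Drp1 fl/fl mice. All 8 macrophage-defining markers were tested, and their summed level was 13412 to 14811 CPM in WT and 11993 to 14417 CPM in Drp1 KO libraries. Csf1r (log2 fold change -0.52, adjusted p = 0.0341) and Mertk (-0.52, adjusted p = 0.0235) fell and Fcgr1 rose (1.34, adjusted p = 0.000322). Neutrophil markers summed to 90.4 to 98.5 CPM in WT and 119 to 222 CPM in Drp1 KO libraries, with 8 of 11 tested, all 8 above 0, none called, 5 with an unadjusted p under 0.05 (16.4% of all genes tested had one), and the defining marker Ly6g at 0 in all libraries. The part of these cells in the results below was not tested, and in bulk RNA fewer cells of a type and less RNA per cell cannot be told apart.

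Per transcript length, the 10 genes fell into an abundant and a scarce set. In WT libraries Vegfa was at 438 ± 32.6 on the length-corrected TPM scale (mean ± SD, n = 3), Nrp1 at 199 ± 26.2 TPM, Vegfb at 88.3 ± 4.15 TPM, Jag1 at 17.0 ± 2.52 TPM and Angptl4 at 9.19 ± 1.38 TPM. The WT ranges of these 5 did not overlap, so their order held in every WT library, and the same order held in every Drp1 KO library. The other 5, Pgf, Flt1, Fgf1, Jag2 and Vegfc, had WT means of 0.638 TPM or less and ranges that overlapped with a neighbour in that order, except between Jag2 and Vegfc. In counts these 5 were the genes with means under 3 CPM, and the values below for them rest on few reads.

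**Figure D1:**
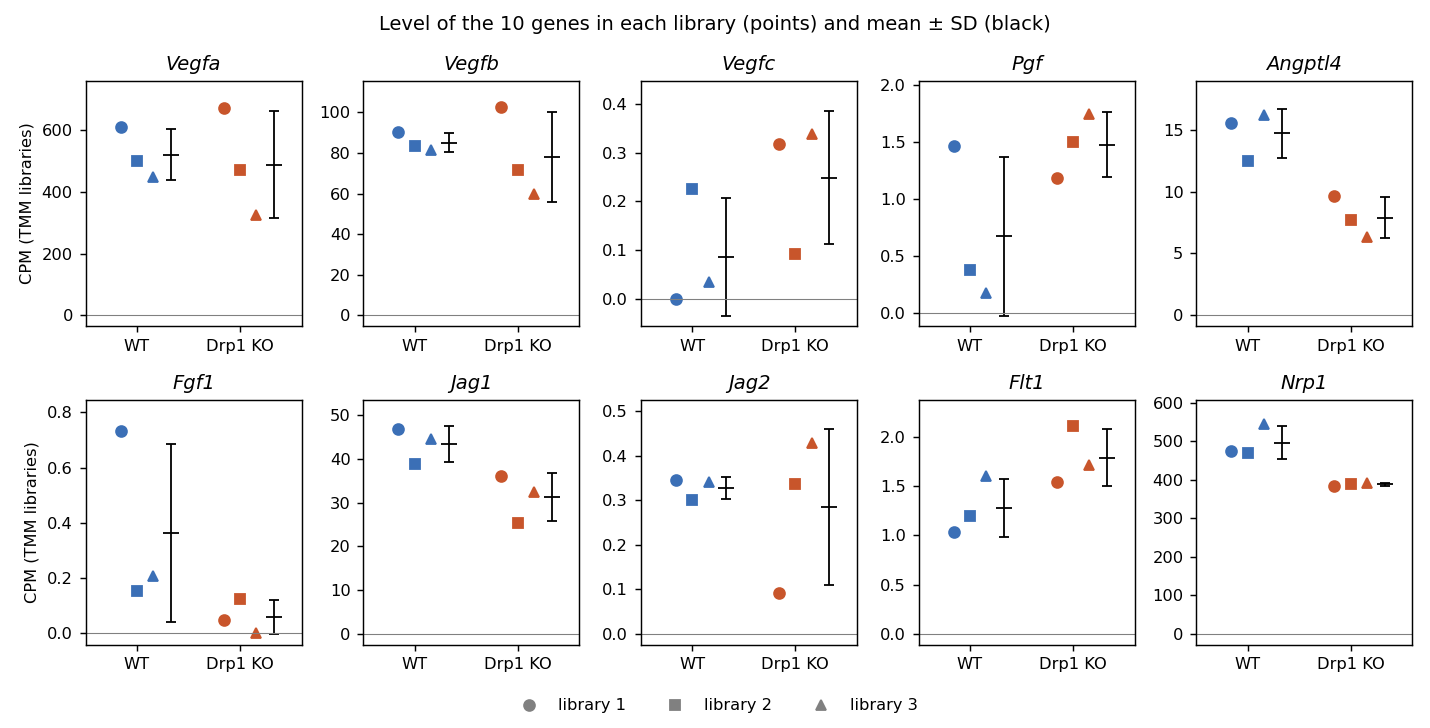
Each panel shows 1 gene, with its level in CPM on a linear axis in the 3 WT libraries (blue) and the 3 Drp1 KO libraries (orange), symbols for the library number, and the mean ± SD in black. Angptl4, Jag1 and Nrp1 do not overlap between the groups, which held for 21.9% of all genes tested. Fgf1 does not overlap either, but it reached the minimum count only through WT and is not read with them. Vegfa spans 447 to 609 CPM in WT and 323 to 671 CPM in Drp1 KO libraries.

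Vegfa (chr17:46327919-46343309, minus strand) was at 609, 500 and 447 CPM in WT and at 671, 469 and 323 CPM in Drp1 KO libraries 1, 2 and 3. Library 1 was the highest and library 3 the lowest in both groups, and the Drp1 KO values enclosed all WT values. Its log2 fold change was -0.09 (SE 0.224, edgeR adjusted p = 0.917). The sign turned with WT library 1 left out (0.04) or with Drp1 KO library 3 left out (0.14), and the estimate was -0.40 without Drp1 KO library 1 (adjusted p = 0.264). With the library number as a block it was -0.14 (SE 0.103, adjusted p = 0.467).

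Vegfb (chr19:6958447-6965127, minus strand), which acts through Flt1 and Nrp1 and is linked to fatty acid uptake, was at 90.2, 83.5 and 81.3 CPM in WT and at 103, 71.6 and 59.8 CPM in Drp1 KO libraries. As for Vegfa, the Drp1 KO values lay on both sides of the WT values, with library 1 the highest. The log2 fold change was -0.13 (SE 0.170, adjusted p = 0.809), and it was 0.04 without Drp1 KO library 3.

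Pgf (chr12:85213409-85224564, minus strand), a ligand of Flt1, had 34, 10 and 5 counts in WT and 26, 49 and 57 counts in Drp1 KO libraries. Those counts corresponded to 1.47, 0.375 and 0.170 CPM and to 1.18, 1.50 and 1.75 CPM. WT library 1 lay within the Drp1 KO range and the other two WT libraries lay under it. The log2 fold change was 1.19 (SE 0.600, adjusted p = 0.369), and with 1 library left out it ran from 0.69 without WT library 3 (adjusted p = 0.695) to 2.44 without WT library 1 (adjusted p = 0.0175). The last was the only one of the alternatives under which Pgf passed.

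Vegfc (chr8:54530257-54640131, plus strand), the lymphatic growth factor, had 0, 6 and 1 counts in WT and 7, 3 and 11 counts in Drp1 KO libraries, with overlapping groups (log2 fold change 1.44, SE 0.972, adjusted p = 0.535). The estimate rested on 28 counts, 7 in WT and 21 in Drp1 KO. Vegfc thus reached the minimum count only through Drp1 KO, so the filter fixed its direction. With 1 library left out the estimate ran from 0.93 to 3.41, the highest without WT library 2 (adjusted p = 0.303). The 4 VEGF family genes together summed to 564, 524 and 494 TPM in WT and to 547, 448 and 337 TPM in Drp1 KO libraries. The groups overlapped (two-sided exact permutation p = 0.3), while the sum was lower in Drp1 KO within each of the 3 library numbers (exact sign-flip p = 0.25, the smallest that 3 pairs can give). Vegfa took 83.1% ± 0.937 of that sum in WT and 82.5% ± 1.34 in Drp1 KO libraries (SD, n = 3, two-sided exact permutation p = 0.7, the smallest p this design allows being 0.1). The composition of the family thus moved by -0.64 percentage points, less than the SD of either group.

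Angptl4 (chr17:33992724-34000804, minus strand) encodes a secreted inhibitor of lipoprotein lipase that also acts on vessel permeability and is induced by hypoxia and by PPARs. It was at 15.5, 12.4 and 16.2 CPM in WT and at 9.62, 7.67 and 6.35 CPM in Drp1 KO libraries. The lowest WT library was above the highest Drp1 KO library. The log2 fold change was -0.91 (SE 0.176, adjusted p = 0.0222), a WT level 1.87 times that of Drp1 KO. The call was lost without library 2 or 3 of the Drp1 KO group (adjusted p = 0.103 and 0.0697) or the third WT library (0.105), with log2 fold changes from -1.08 to -0.77 over the libraries left out.

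Fgf1 (chr18:38971717-39077186, minus strand), a heparin-binding growth factor for endothelial and other cells, had 17, 4 and 6 counts in WT and 1, 4 and 0 counts in Drp1 KO libraries. After normalization these were 0.733, 0.150 and 0.204 CPM against 0.0454, 0.122 and 0 CPM. The groups did not overlap, although WT library 2 and Drp1 KO library 2 had the same 4 counts at different depths, and 2 of the 3 Drp1 KO libraries lay under the floor of 3 counts. The fitted log2 fold change of -2.55 (SE 0.990, adjusted p = 0.229) rested on 27 counts against 5, so that Fgf1 reached the minimum of 10 counts only through WT, and ran from -3.93 to -1.58 over the other settings.

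Jag1 (chr2:136923373-136958693, minus strand), a membrane-bound Notch ligand, was at 46.9, 38.8 and 44.5 CPM in WT and at 36.0, 25.3 and 32.3 CPM in Drp1 KO libraries. The groups did not overlap, with WT library 2 and Drp1 KO library 1 nearest to each other. Jag1 had a log2 fold change of -0.48 (SE 0.139, adjusted p = 0.104). With the library number as a block it was -0.49 and passed (adjusted p = 0.00412), as it did by DESeq2 (0.0332), with no filter on low counts (0.0292) and without Drp1 KO library 1 (0.0449).

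Jag2 (chr12:112871421-112893437, minus strand), the other jagged ligand, had 8, 8 and 10 counts in WT and 2, 11 and 14 counts in Drp1 KO libraries. Scaled to depth, these were 0.345, 0.300 and 0.341 CPM against 0.0908, 0.336 and 0.429 CPM, so Drp1 KO library 2 lay among the WT values, library 3 above and library 1 under them. The log2 fold change was -0.15 (SE 0.574, adjusted p = 0.953), and it was 0.21 without Drp1 KO library 1.

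Nrp1 (chr8:129085085-129231082, plus strand) was at 474, 470 and 545 CPM in WT and at 384, 389 and 392 CPM in Drp1 KO libraries. The Drp1 KO values lay within a few CPM of each other and under all WT values. Nrp1 differed by a log2 fold change of -0.35 (SE 0.0956, adjusted p = 0.0812), and it passed with the library number as a block (adjusted p = 0.0113) and by DESeq2 (0.0111). Nrp1 made up 57.6% ± 3.36 of the TPM of the neuropilins Nrp1 and Nrp2 in WT and 57.5% ± 2.26 in Drp1 KO libraries (SD, n = 3, two-sided exact permutation p = 1).

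Flt1 (chr5:147498414-147662826, minus strand) had 24, 32 and 47 counts in WT and 34, 69 and 56 counts in Drp1 KO libraries, or 1.03, 1.20 and 1.60 CPM against 1.54, 2.11 and 1.72 CPM. WT library 3 lay within the Drp1 KO range. A log2 fold change of 0.48 was fitted (SE 0.281, adjusted p = 0.453).

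Read together, 1 of the 10 genes was called at an adjusted p under 0.05, against 3.36% of all genes tested, 1.06% lower and 2.29% higher. By the criteria of the study, a log2 fold change beyond 0.32 either way with an unadjusted p under 0.05, Angptl4, Jag1 and Nrp1 passed, all lower, against 12.7% of all genes, 5.48% lower and 7.19% higher. The same 3 had groups that did not overlap, against 21.9% of all genes, 10.3% lower and 11.7% higher. Fgf1 met both as well, but its direction was set by the filter on low counts and its gap by the depths of the libraries numbered 2, and it is not read with these 3. The study showed heat maps of pro-angiogenic genes from these same libraries, so the direction of any gene shared with them is not independent evidence. Of the 10 genes, 7 had a log2 fold change below 0 and 3 above, with a median of -0.14, where all genes tested had a median of 0.00460. This tally includes Fgf1 and Vegfc, each of which reached the minimum count only through the group where it was higher. It is therefore not read as a shift of the genes as a set. Over 14 other settings, Angptl4 was called in 11, Jag1 in 4, Nrp1 in 2 and Pgf in 1, and the other 6 genes in none of those that tested them.

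**Figure D2:**
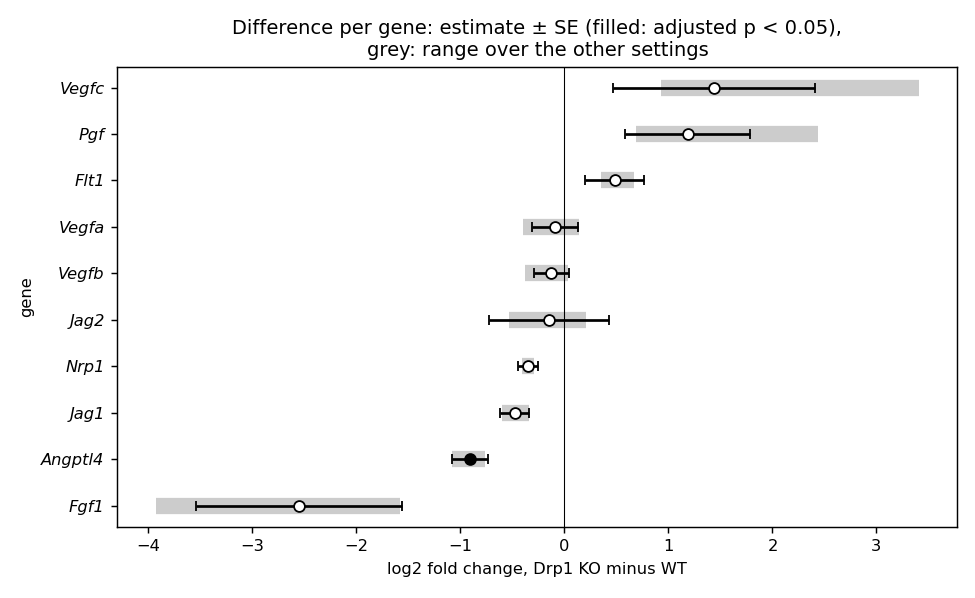
The horizontal axis is the log2 fold change of Drp1 KO minus WT for each gene, with the estimate and its SE in black, filled where the adjusted p was under 0.05, and a grey bar for the range over the other settings. Angptl4 is the filled point, and the grey bars of Vegfa, Vegfb and Jag2 cross 0.

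At the level of transcripts, 29 of the 57 transcripts of the 10 genes in the files had enough counts to be tested. None passed an adjusted p of 0.05 in edgeR, while 8 had an unadjusted p under 0.05. Of all transcripts tested, 0.332% passed the adjusted threshold and 10.3% had an unadjusted p under 0.05. Kallisto divides reads that fit several transcripts by its model, so the split between forms carries an error that the counts do not show. Groups without overlap were counted over all genes (21.9%) but not over transcripts or their shares. The gaps between groups given below for transcripts therefore have no such background.

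For Vegfa, Vegfa-202, which has exon 7 but not exon 6, held 61.3%, 56.2% and 61.3% of the gene's counts in WT and 65.7%, 73.6% and 77.1% in Drp1 KO libraries. All 3 Drp1 KO libraries were above all WT libraries. Vegfa-207, with both exons, held 26.1%, 28.1% and 22.5% in WT and 23.7%, 11.1% and 7.06% in Drp1 KO libraries, where library 1 lay within the WT range and libraries 2 and 3 under it. In counts, Vegfa-202 had a log2 fold change of 0.15 (adjusted p = 0.932) and Vegfa-207 of -0.78 (SE 0.629, adjusted p = 0.798). Over the other settings Vegfa-202 ran from -0.07 to 0.34, so its sign turned, and Vegfa-207 from -1.84 to -0.34. Vegfa-203, without exon 7, held 8.97% of the pooled counts in WT and 9.72% in Drp1 KO, but 44.5% ± 0.942 and 48.8% ± 7.37 of the gene's TPM (SD, n = 3), since the file gives it 513 bases. In the files Vegfa-207 is 1973 bases long and Vegfa-202 3451, where the present annotation gives 3537 and 3465, so Vegfa-207 was shorter in the index than in that annotation, and the part of this in the split was not tested.

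For Vegfb, the diffusing form Vegfb-201 took 33.9%, 46.0% and 38.7% of the counts in WT and 37.7%, 27.8% and 23.2% in Drp1 KO libraries, and the heparin-binding Vegfb-202 took almost all of the rest. Drp1 KO library 1 lay within the WT range and the others under it. By TPM, Vegfb-201 held 35.8% ± 5.80 of the gene in WT and 26.4% ± 7.08 in Drp1 KO libraries (SD, n = 3, two-sided exact permutation p = 0.2).

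The count of Flt1 came mostly from its soluble form. Flt1-203 had 17, 24 and 38 counts in WT and 17, 47 and 35 counts in Drp1 KO libraries, with the same value in the first library of each group and a log2 fold change of 0.16 (SE 0.425, adjusted p = 0.970) that ran from -0.07 to 0.43 over the other settings. The full-length Flt1-202 had 0, 1 and 0 counts in WT and 11, 6 and 14 counts in Drp1 KO libraries, without overlap. Of the counts on these forms, 1 of 80 was full-length in WT (exact binomial 95% interval 0.0316% to 6.77%) and 31 of 130 in Drp1 KO, or 23.8% (16.8% to 32.1%), intervals that cover counting error within the pooled reads only. Per library the share was 1.33% ± 2.31 in WT and 26.4% ± 14.1 in Drp1 KO (SD, two-sided exact permutation p = 0.1, the smallest that 3 against 3 can give). The edgeR test of Flt1-202 across all transcripts gave an unadjusted p of 0.00678 and an adjusted p of 0.228, but this transcript reached the minimum of 10 counts only through Drp1 KO, so the filter fixed its direction. The shares rest on the same counts, and Flt1-202 held at least 10% of the gene only in the Drp1 KO group. They are therefore not separate support. A further transcript, Flt1-206, a retained intron, held 22.3% of the pooled counts in WT and 18.2% in Drp1 KO. By TPM, Flt1-206 held 48.4% ± 7.20 of the gene in WT and 40.4% ± 8.72 in Drp1 KO libraries (SD, n = 3). Flt1-203 held 50.9% ± 7.00 and 45.7% ± 6.38 by TPM, and its groups overlapped (two-sided exact permutation p = 0.5).

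For Angptl4, the coding Angptl4-201 had 107, 153 and 227 counts in WT and 101, 120 and 94 in Drp1 KO libraries, and Angptl4-202 had 250, 173 and 242 counts in WT and 111, 116 and 105 in Drp1 KO libraries. Scaled to depth, neither form overlapped between the groups, with Angptl4-201 at 4.69 to 7.71 CPM in WT and 2.89 to 4.61 CPM in Drp1 KO libraries and Angptl4-202 at no less than 6.41 CPM in WT and no more than 5.07 CPM in Drp1 KO libraries. Their log2 fold changes were -0.70 (SE 0.292, adjusted p = 0.477) and -1.12 (SE 0.292, adjusted p = 0.223), and neither passed alone. Angptl4-202 held 69.4%, 52.1% and 51.1% of the gene's counts in WT and 52.3%, 46.3% and 50.9% in Drp1 KO libraries, so that WT library 1 stood above the rest and the other values overlapped. By TPM its share was 65.8% ± 9.64 in WT and 54.8% ± 9.53 in Drp1 KO libraries (SD, n = 3, two-sided exact permutation p = 0.3). Angptl4-204, with no defined coding sequence, had 3, 6 and 4 counts in WT and 0, 14 and 8 counts in Drp1 KO libraries, or 5.89% ± 2.86 and 14.5% ± 13.2 of the gene's TPM (exact permutation p = 0.4).

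In Jag1, the coding Jag1-201 had 935, 857 and 1032 counts in WT and 683, 684 and 905 in Drp1 KO libraries (log2 fold change -0.44, adjusted p = 0.482), and the retained-intron Jag1-202 152, 179 and 275 against 110, 144 and 149 (-0.70, adjusted p = 0.336). Nrp1-201, the full-length membrane form, held at least 95.5% of Nrp1 counts in each library (log2 fold change -0.36, SE 0.0923, adjusted p = 0.206). In Pgf, the coding Pgf-201 had 28, 0 and 0 counts in WT and 9, 41 and 23 in Drp1 KO libraries. The retained-intron Pgf-202 had 6, 10 and 5 counts in WT and 17, 8 and 34 in Drp1 KO libraries, so no count in WT libraries 2 and 3 was assigned to the coding form. The transcripts of Fgf1, Jag2 and Vegfc had at most 12 counts in any library and are not described singly.

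**Figure D3:**
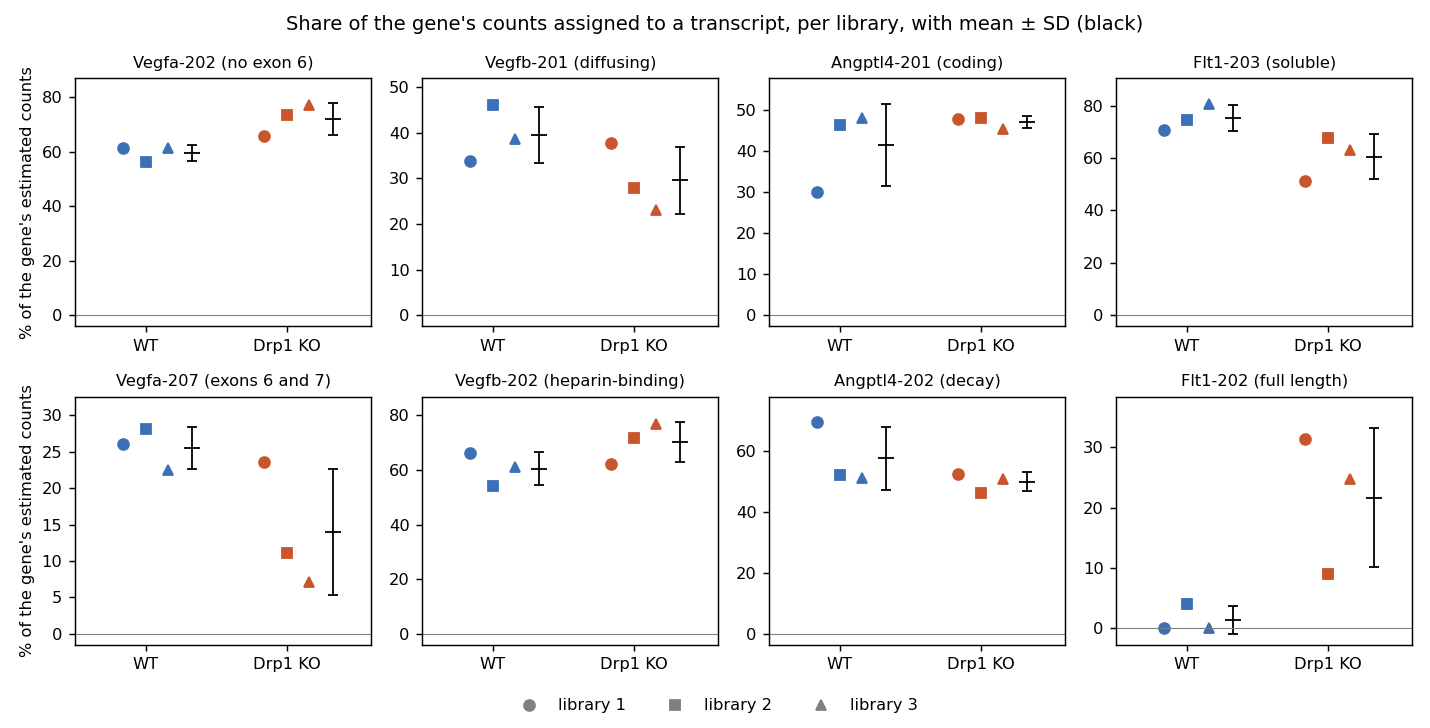
Each panel shows, for 1 transcript, the percent of its gene's estimated counts on a linear axis in each WT (blue) and Drp1 KO (orange) library, with symbols for the library number and the mean ± SD in black. Vegfa-202 does not overlap between the groups, at 56.2% to 61.3% against 65.7% to 77.1%. Flt1-203 and Flt1-202 do not either, at 70.7% to 80.7% against 51.1% to 67.7%, and 0% to 4% against 8.98% to 31.3%. By TPM the Flt1-203 shares overlapped, and Flt1-202 reached the minimum of 10 counts only through Drp1 KO. Shares without overlap were not counted over all transcripts.

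The other genes of these pathways were counted in lists that leave the 10 genes out. Among growth factor receptors and coreceptors, 1 of 17 tested genes passed, where 3.36% of all genes did, and 6 had an unadjusted p under 0.05, where 16.4% of all genes had one. The 1 that passed was higher: Kdr (VEGFR2), the main signalling receptor for Vegfa, at 12.2, 8.92 and 9.10 CPM in WT and at 23.1, 17.4 and 17.7 CPM in Drp1 KO libraries. Every Drp1 KO library was above every WT library (log2 fold change 0.94, SE 0.167, adjusted p = 0.0144), and the call was lost without WT library 2 (adjusted p = 0.106) or WT library 3 (0.0892). Kdr is also an endothelial marker, and 7 of the 10 endothelial markers were tested, 5 of them below 0, with a median log2 fold change of -0.39. Without Kdr their summed level was 39.4, 55.3 and 58.1 CPM in WT and 42.6, 30.5 and 44.2 CPM in Drp1 KO libraries, most of it Vwf, the von Willebrand factor (log2 fold change -0.40, adjusted p = 0.313). The 2 with an unadjusted p under 0.05, Kdr and Cdh5, were both higher in Drp1 KO. Cdh5, which defines endothelial cells, was at 0.0681 to 0.187 CPM in WT and 0.153 to 0.580 CPM in Drp1 KO libraries (log2 fold change 1.85, SE 0.708, adjusted p = 0.222), Tek was at 0 in all Drp1 KO libraries, and Cldn5 was at 0 in all 6. By TPM, Kdr made up 84.1% ± 3.87 of Kdr plus Flt1 in WT and 88.9% ± 3.46 in Drp1 KO libraries (SD, n = 3, two-sided exact permutation p = 0.2). The share was higher in Drp1 KO within each of the 3 library numbers, by 3.88, 1.52 and 9.14 percentage points (exact sign-flip p = 0.25, the smallest possible).

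Among 23 other angiogenic ligands tested, none passed by edgeR, 4 had an unadjusted p under 0.05 (against 16.4% of all genes tested), and the median log2 fold change was -0.01, or -0.16 without Drp1 KO library 3. The 2 with the smallest p were Adm (adrenomedullin, a hypoxia-induced vasodilator peptide), at 37.3, 27.8 and 22.0 CPM in WT and 23.2, 18.4 and 13.0 CPM in Drp1 KO libraries (log2 fold change -0.68, adjusted p = 0.158), and Sema4d (0.28, adjusted p = 0.131). Adm overlapped between the groups but was lower in Drp1 KO within each library number, and both passed with the number as a block (adjusted p = 0.000777 and 0.0243). Among 5 semaphorins tested that bind neuropilins, none passed and 1 had an unadjusted p under 0.05, Sema3c (1.13, adjusted p = 0.121, with the block 0.0263), at 0.776 to 1.12 CPM in WT and 1.59 to 3.19 CPM in Drp1 KO libraries. Without Drp1 KO library 3 its log2 fold change was 0.72 (adjusted p = 0.395). Among 17 angiogenesis inhibitors none passed and 2 had an unadjusted p under 0.05. These were Col18a1, the precursor of endostatin (-0.41, adjusted p = 0.0654, with the block 0.00870, and with length-scaled counts -0.22, adjusted p = 0.612), and the chemokine Cxcl10 (1.01, adjusted p = 0.265, with the block 0.0318). The log2 fold change of Cxcl10 ran from 0.58 without WT library 3 (adjusted p = 0.477) to 1.54 without WT library 2 (0.175).

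Around the Notch ligands, none of 8 other receptors and ligands passed and none had an unadjusted p under 0.05, with 7 of 8 below 0 and a median log2 fold change of -0.21, which was -0.34 when library 1 or 3 of WT or library 1 of Drp1 KO was left out. Notch1 was at -0.20 (adjusted p = 0.311) and Notch4 at -0.47 (adjusted p = 0.431, and -0.27 with length-scaled counts, adjusted p = 0.816). Of 20 processing and modifying enzymes 1 passed, and it was lower: Adam17, a protease that sheds Notch and many growth factor ligands (log2 fold change -0.46, SE 0.105, adjusted p = 0.0432). It lay at 267 to 324 CPM in WT and 198 to 230 CPM in Drp1 KO libraries, and its adjusted p ran from 0.0528 to 0.212 with any 1 of the 6 libraries left out and was 0.134 with length-scaled counts (log2 fold change -0.35). Of 9 genes of the Notch transcription complex and its targets 1 passed, also lower: Spen, a corepressor that binds the Notch transcription factor Rbpj (-0.46, SE 0.0954, adjusted p = 0.0297). Beside these lists, 3.36% of all genes tested passed, with 1.06% lower. Spen lay at 194 to 207 CPM in WT and 138 to 161 CPM in Drp1 KO libraries, and lost its call when WT library 2 or 3 (adjusted p = 0.138 and 0.130) or library 2 or 3 of Drp1 KO (0.137 and 0.107) was left out, and with length-scaled counts (log2 fold change -0.28, adjusted p = 0.298).

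Among genes that share an inducer with Vegfa and Angptl4, 0 of 22 hypoxia-induced genes passed by edgeR, with 5 at an unadjusted p under 0.05, where 16.4% of all genes had one. Their summed level was 8688, 7802 and 7545 CPM in WT and 8813, 7818 and 7726 CPM in Drp1 KO libraries, with library 1 the highest in both groups, as for Vegfa. P4ha2 (log2 fold change -0.36, adjusted p = 0.0800) and Ddit4 (0.62, adjusted p = 0.139) had the smallest p, in opposite directions, and both passed with the block (0.0103 and 0.000906). Ddit4 ran from 0.40 without Drp1 KO library 1 (adjusted p = 0.285) to 0.84 without WT library 1, where it passed (0.0372). Among 9 HIF subunits and regulators none passed and 1 had an unadjusted p under 0.05. It was Epas1, the gene for HIF-2α (-0.65, adjusted p = 0.253, with the block 0.0282), and Hif1an, next in order, was at -0.22 (adjusted p = 0.357, and -0.46 with length-scaled counts, adjusted p = 0.211). Without WT library 1 Epas1 was at -0.32 (adjusted p = 0.492). Among 15 PPAR-induced genes, a list chosen because Angptl4 belongs to that group, 1 passed and was lower: Abca1, a cholesterol exporter, at 1758, 2097 and 1851 CPM in WT and 1398, 1269 and 1343 CPM in Drp1 KO libraries (-0.51, SE 0.106, adjusted p = 0.0297). Of these 15 genes, 11 lay below 0, with a median of -0.24 (-0.38 without Drp1 KO library 1), and 6 had an unadjusted p under 0.05, against 16.4% of all genes. Over all 10 lists 4 of 145 genes passed, or 2.76%, where 3.36% of all genes did, and 27, or 18.6%, had an unadjusted p under 0.05. The Abca1 call was lost when WT library 2 or 3 (adjusted p = 0.175 and 0.108) or library 2 or 3 of Drp1 KO (0.135 and 0.0892) was left out.

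**Figure D4:**
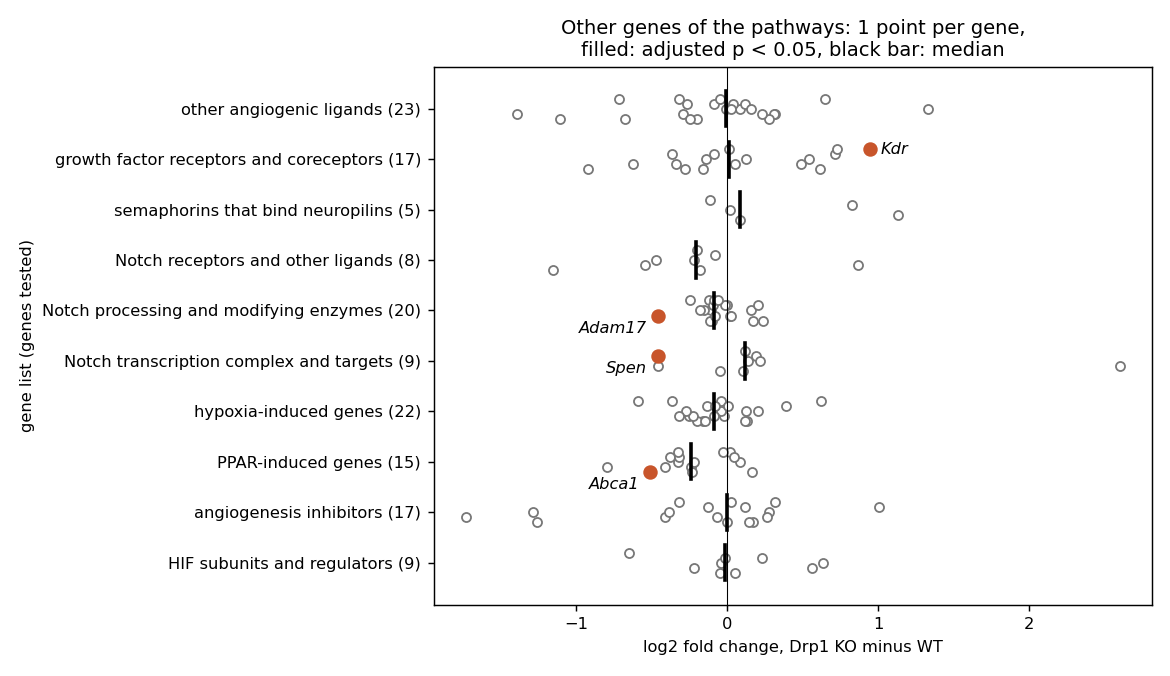
Each point is 1 gene of a list, placed by its log2 fold change of Drp1 KO minus WT, with genes at an adjusted p under 0.05 filled and named and the median of the list as a black bar. Kdr lies to the right at 0.94, Adam17, Spen and Abca1 to the left between -0.51 and -0.46, and the list medians run from -0.24 to 0.12.

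The genes whose log2 CPM followed each factor most closely over the 6 libraries were listed as a description, from 12247 genes that averaged 1 CPM or more, and with so few points high values arise for many genes. For Vegfa they were Puf60, Cct2 and Peli3, with Pearson's r of 0.995, 0.992 and 0.992, none of which was called. For Angptl4 they were Trpv4, Ccdc115 and Tbca (r of 0.994, 0.991 and 0.991), of which Trpv4, a calcium channel, was lower in Drp1 KO (log2 fold change -0.83, adjusted p = 0.0369). Picking genes that follow Angptl4 over both genotypes favours genes lower in Drp1 KO, so the Trpv4 call is not separate evidence. For Jag1 they were Plcg2, Castor2 and Glul (r of 0.994, 0.992 and 0.990), none of which was called.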

How the data were processed

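Poly(A) RNA of 3 WT and 3 Drp1 KO BMDM libraries was sequenced in paired-end mode. Per the labels and the study's methods, the authors quantified reads with kallisto 0.46.1 against an Ensembl GRCm39 cDNA index and deposited, per transcript, an estimated count and a TPM value. Whether kallisto used strand or bias correction was not given in the sources used here, and the study's text and the processing notes (DESeq2 1.44.0) differ in the DESeq2 version. The labels and the study's text also differ in oxygen level and L929 share.

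Of 116873 transcripts, 116159 (99.4%) were matched by identifier to GENCODE genes, and the remaining transcripts, with 0.542% to 0.575% of the counts of each library, were dropped. Sums of the estimated counts per gene were rounded, as were the counts of single transcripts. Genes and transcripts with at least 10 counts in total were tested with the quasi-likelihood test of edgeR 4.0.16 (R 4.3.3, TMM, no covariate), with Benjamini-Hochberg adjustment over all features tested. SE is the absolute log2 fold change over the root of F. CPM uses TMM library sizes. Shares were compared by exact permutation (scipy 1.17.1). Alternatives were DESeq2 1.42.0, limma-voom (limma 3.58.1), other size factors, other filters, length-scaled counts, a replicate block and each library left out. The edgeR step was tested on simulated data.

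Groups came from sample titles, which number the libraries 1 to 3. Deviations from the group means correlated at 0.510, 0.204 and 0.298 between same-numbered libraries over 12248 genes, each above 0.1. On that basis alone, with no statement in the labels, same-numbered libraries were paired in the replicate block and the sign-flip tests, and the main fits and permutation tests were unpaired. The sign-flip tests of the VEGF family sum and the Kdr share were added after seeing the data. Pairs with different numbers ran from -0.443 to 0.326. The highest, WT library 2 with Drp1 KO library 3, lay above the same-numbered values of 0.204 and 0.298. Every result with the block thus rests on a pairing taken from these same data.

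The 10 genes and all lists were chosen with earlier results of these data known. Named from each list were genes with an adjusted p under 0.05, or, with none, the 2 with the smallest p at a mean of at least 1 CPM. Named transcripts held at least 10% of their gene in either group. Marker lists given nowhere else summed, over all libraries, to 13.8 to 22.4 CPM for fibroblasts, 7.77 to 11.5 CPM for lymphocytes, 2.45 to 5.86 CPM for dendritic cells and 0.431 to 1.87 CPM for megakaryocytes and erythroid cells, with none of their genes called. Sequences are from the GRCm39 genome, at exons of the GENCODE annotation.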

Additional observations from a re-analysis of the deposited data

How the results depend on the processing

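The number of the 10 genes called at an adjusted p under 0.05 was 1, and 3 by the DESeq2 Wald test, 2 with no filter beyond 1 count and 3 with the replicate block. With 1 library left out it ran from 0 to 2. The number past the study's criteria, with Fgf1, was 4 and ran from 3 to 5 over all settings. Of the 145 other pathway genes tested 4 were called, against 8 with library size only, 12 by DESeq2, 10 with no filter beyond 1 count, 3 with length-scaled counts (Adam17 and Spen lost, P4ha2 gained), 24 with the replicate block and 0 to 8 with 1 library left out. The block raised the calls over all genes from 621 to 2212. No transcript of the 10 genes was called in edgeR under any of 10 other settings. With the block none of all transcripts was called, against 206 without it, while 7231 had an unadjusted p under 0.05. The difference in the Vegfa share of the VEGF family was -0.64 percentage points with the block as without it (exact sign-flip p = 0.5), -0.03 by estimated counts, and -1.35 to -0.02 with 1 library left out. With 1 library left out, the log2 fold change of Vegfa ran from -0.40 to 0.14 (positive also, at 0.04, with WT library 1 left out), that of Vegfb from -0.38 to 0.037 and that of Jag2 from -0.53 to 0.21, the positive ends being the fits that omit Drp1 KO library 3, 3 and 1. Vegfc ran from 0.93 to 3.41, the highest without WT library 2. The median of the 10 genes was -0.37 without Drp1 KO library 1, 1 of 13 among 154 list medians under other settings to move by more than the spread between libraries. The causes of these changes were not tested. Depth limits Vegfc, Fgf1 and the full-length Flt1 transcript, whose counts lie near the floor of 3 counts in several libraries. It also limits Jag2, which had 2 to 14 counts per library.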
